A study of Mus musculus with 24 samples.

Results

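The genes described here encode the initiation and elongation factors of cytosolic protein synthesis, with the kinases, exchange factors and binding proteins that regulate them. They were chosen by name alone, as every non-control probe of the array whose gene name begins with Eif1 to Eif6, Eef1 or Eef2. This gave 105 of 55681 probes, for 66 genes. A probe was taken as measured where its mean Cy5 signal averaged over 2 times the local background across the 24 arrays. With this rule 83 probes were measured, and 59 of the 66 genes had at least 1 of them, among 9140 genes tested in all. The gene names are those of the array design, so 4 of the genes are Argonaute genes under their old names Eif2c1 to Eif2c4. They bind small RNAs and are not translation factors. The rule takes them in, so the counts over the 59 genes hold the 2 that were measured, while in the complexes they form a group of their own.

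RNA came from *M. gastrocnemius*, a calf muscle, of male C57BL/6JOlaHsd mice that breathed air with 20.9% oxygen (Norm, n = 12) or 12% oxygen (Hypox, n = 12) for 6 h. All mice had arrived at 10 weeks of age, had eaten a diet with 10% of its energy as fat for 3 weeks and one with 40% for 6 weeks, and were fasted when exposed. On every 2-colour array, Cy5 labelled the muscle RNA of a single mouse and Cy3 a pool made from the RNA of all mice. Values are normalised log2 ratios of sample over pool, and a difference is the mean of Hypox minus the mean of Norm on that scale.

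Initiation begins when eIF2, loaded with GTP, brings the initiator tRNA to the small ribosomal subunit, where eIF3, eIF1, eIF1A and eIF5 assemble with it. The cap of the message is bound by eIF4E, which together with the scaffold eIF4G and the helicase eIF4A forms eIF4F. The exchange factor eIF2B recharges eIF2 with GTP, and phosphorylation of eIF2 by its kinases blocks this step, while 4E-binding proteins keep eIF4E from eIF4G. During elongation eEF1A delivers each aminoacyl-tRNA and eEF2 moves the ribosome on by a codon. Muscle is known for making eEF1A from *Eef1a2* in place of *Eef1a1* once it has matured. Much of the control of these factors is by phosphorylation, which arrays of messenger RNA do not measure.

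Arrays differed in brightness, with a mean Cy5 signal of 58.3 to 933 (Norm) and 63.5 to 1014 (Hypox), and the 6 slides each carried 2 arrays of either group. All 8 muscle fibre markers were measured, at between 16.4 (*Mylpf*) and 3892 (*Tnni2*) times the background. Of these, 5 were lower and 3 higher in Hypox, at a median of -0.17, and 1, *Mylpf*, had a *P*-value under 0.05 (higher by 0.36, *P*-value = 0.000905). All 5 nerve markers and all 3 measured adipocyte markers of 5 were lower in Hypox, 2 of each with a *P*-value under 0.05. The nerve marker *Mbp* differed by only -0.000786 (limma *P*-value = 0.993), and of all genes tested 5.08% passed as lower. *Sftpc*, the single measured marker of 5 for lung, was higher by 0.81 (*P*-value = 0.0153). Cy5 levels of the markers were also summed, after background correction and quantile normalization between arrays. The sum of the adipocyte markers lay between 522 and 2878 in Norm and between 497 and 1112 in Hypox. That of the nerve markers lay between 555 and 888 in Norm and between 431 and 857 in Hypox. The level of *Sftpc* lay between 57.3 and 66.5 in Norm and between 56.7 and 540 in Hypox. *Cdh5*, 1 of 2 measured endothelial markers of 5, was higher by 0.38 (*P*-value = 0.00534), while the other, *Kdr*, differed by -0.15. *Dcn*, 1 of 4 fibroblast markers, was lower, at -0.37 (*P*-value = 0.0293). The other fibroblast markers differed by 0.22 (*Col3a1*), 0.11 (*Col1a1*) and -0.000787 (*Pdgfra*), so neither list went in a single direction. The 2 measured red blood cell markers of 4 and the 2 leukocyte markers of 5 had no *P*-value under 0.05. The part of these tissues in the results below was not tested. In whole muscle, fewer cells of a type and less RNA per cell cannot be told apart.

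In the translation factors, 3 arrays stood apart. The SD of the 59 genes around their group medians was 0.59 in Hypox 2, 0.55 in Hypox 12 and 0.42 in Norm 9, and between 0.17 and 0.32 in the other arrays. Hypox 2 had the highest value of all 24 arrays for 14 genes and the lowest for 8, and Norm 9 had the lowest for 14. Results are therefore also given without these 3 arrays, an alternative chosen after seeing the data.

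The probes behind the changes with a *P*-value under 0.05 are shown, as printed on the array, 5′ to 3′ in the sense of the message, in full for the first 3 and by their first 30 bases for the others, while those of *Eif3j* are given by position alone. No letters are capitalised, since no part of a probe was singled out. Coordinates are of build mm9 as given by the files. The list also has the 5′ probe of *Eif3c*, a second probe of its gene. The probe of *Eif4e2* lies at chr1:89122748-89122807 on the plus strand, that of *Eif2b3* at chr4:116739087-116739146 on the plus strand, that of *Eif3c* at chr7:133707950-133708009 on the minus strand, that of *Eif3b* at chr5:140918319-140918378 on the plus strand, that of *Eif4a1* at chr11:69480486-69480545 on the minus strand and that of *Eif2b2* at chr12:86567293-86567352 on the plus strand.
Eif4e2: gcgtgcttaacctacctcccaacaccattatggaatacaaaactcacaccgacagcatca
Eif2b3: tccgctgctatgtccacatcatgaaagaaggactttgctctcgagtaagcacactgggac
Eif3c: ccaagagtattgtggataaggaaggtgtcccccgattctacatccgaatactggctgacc
Eif3b: aagagaccattgagttttttgtcaccgagg
Eif4a1: gggagcaggggagagaaaatggtagccatt
Eif2b2: ggattttggagccactcaggctgtgtttgc

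Across the translation factors, messages differed little between Hypox and Norm. Of these 59, 6 (10.2%) had a *P*-value under 0.05 in limma's moderated test, against 12.2% of all genes tested, so their share was near the background. Without the 2 Argonaute genes it was 6 of 57. Higher in Hypox were *Eif4e2*, *Eif2b3*, *Eif4a1*, *Eif2b2* and *Eif3b*, by between 0.19 and 0.31, and lower was *Eif3j*, by 0.41. For all genes tested, 7.17% passed as higher and 5.08% as lower. None of the 59 genes passed after Benjamini-Hochberg adjustment over all genes (0.339% of all genes did), and the smallest adjusted *P*-value was that of *Eif3j*, 0.0816. The methods' t-test on the same values had 5 genes under 0.05 and 0 after adjustment. Without the 3 arrays that stood apart, 13 (22.0%) passed 0.05, 5 of them from the first 6, against 16.2% of all genes, and none passed after adjustment.

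The median difference of the 59 genes was 0.08, with 38 genes higher and 21 lower, and that of all genes was 0.03, with 58.8% of them higher. Without Hypox 2 the median of the 59 was 0.05 and that of all genes 0.02. Without the filter on dim probes the median of the translation factors was also 0.05, over 66 genes, where that of all genes was 0.0095. Within a group of arrays the SD of a translation factor ranged from 0.15 (*Eif4e3*) to 0.46 (*Eif4ebp2*), with a median of 0.25 against 0.23 for all genes. Most differences in the plot of all 59 genes by complex were thus smaller than the spread of single arrays.

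**Figure D1:**
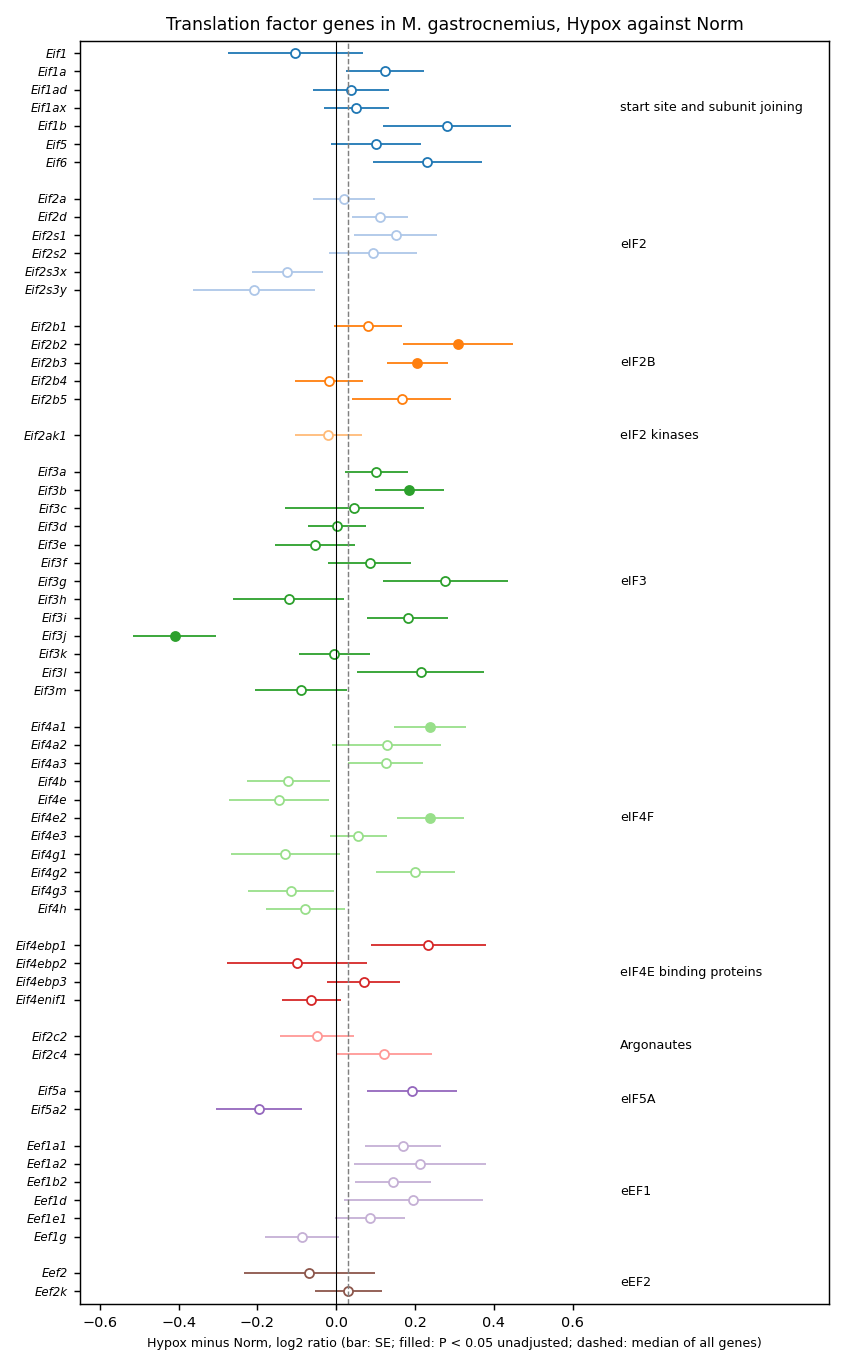
Difference of the log2 ratio, Hypox minus Norm, for the 59 measured genes (points) with its SE (bars), grouped by complex, n = 12 arrays per group. Filled points have an unadjusted *P*-value under 0.05, and the dashed line is the median of all genes tested, 0.03. *Eif3j* lies lowest at -0.41 and *Eif2b2* highest at 0.31.

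In the eIF3 complex, the large scaffold that holds the small subunit ready for a message, *Eif3j* was the gene with the smallest *P*-value of all translation factors. Its protein is a loosely bound subunit that sits near the decoding centre and helps to hold and release messages. The log2 ratio of *Eif3j* was between -0.08 and 0.79 in Norm (median 0.42) and between -0.69 and 0.42 in Hypox (median -0.07). All 12 Hypox arrays were below the Norm median and 6 were below every Norm array. The Norm mean was 0.36 ± 0.24 (SD, n = 12) and the Hypox mean -0.05 ± 0.28 (SD, n = 12), and *Eif3j* thus differed by -0.41 (SE 0.10, limma *P*-value = 0.000509, adjusted *P*-value = 0.0816), or 0.752-fold. Its Hypox mean was the lower one on all 6 slides, by between 0.27 and 0.88, and the correlation of its values with array brightness was 0.10 (Pearson's r, 24 arrays that share slides, given as a description). Without the 3 arrays that stood apart the difference was -0.32 (*P*-value = 0.00255).

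The lower value of *Eif3j* rested on 1 of its 3 probes and on the scaling. Its 5′-most probe, at chr2:121866905-121867335 and so spanning a splice junction, was the brightest and stood for the gene. The 2 probes downstream, at chr2:121879180-121879239 and chr2:121882015-121882074, differed by 0.16 (SE 0.15, *P*-value = 0.276) and 0.06 (SE 0.09, *P*-value = 0.526). With the mean of the 3 probes the difference was -0.06 (*P*-value = 0.348), and with the deposited values it was -0.20 (*P*-value = 0.518). With each array centred on its median it was 0.00552 (*P*-value = 0.991), where the median of all genes was 0.25. RefSeq names this gene *Eif3j1* and lists a further gene, *Eif3j2*, and whether the probes take up messages of both cannot be told from these data.

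The 12 other eIF3 genes had 8 higher and 4 lower values, between -0.12 and 0.28. *Eif3b*, a core subunit, ranged from -0.76 to 0.05 in Norm (median -0.43) and from -0.46 to 0.10 in Hypox (median -0.23). Its Hypox arrays were above the Norm median in 11 of 12 cases, and 1 lay above every Norm array. Its difference was 0.19 (SE 0.09, *P*-value = 0.0446, adjusted *P*-value = 0.395). Of 24 fits with a single array taken away, 11 kept it under 0.05. The difference was 0.15 (*P*-value = 0.0883) without Norm 9, 0.16 (*P*-value = 0.0801) without Hypox 2 and 0.15 (*P*-value = 0.0942) without these and Hypox 12.

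No other eIF3 gene had a *P*-value under 0.05. The differences were 0.28 for *Eif3g*, 0.21 for *Eif3l*, 0.18 for *Eif3i*, 0.10 for *Eif3a*, 0.08 for *Eif3f*, 0.05 for *Eif3c* and 0.00171 for *Eif3d*. They were -0.12 for *Eif3h*, -0.09 for *Eif3m*, -0.05 for *Eif3e* and -0.00466 for *Eif3k*.

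*Eif3c*, another core subunit, had a second probe that was not the one that stood for its gene. This 5′ probe, printed above, was between -0.39 and 0.37 in Norm (median -0.06) and between -0.59 and -0.16 in Hypox (median -0.33). It was lower in Hypox by 0.30 (SE 0.08, *P*-value = 0.000621, adjusted over 14312 probes 0.0570) and lower on all 6 slides. The 3′ probe, at chr7:133690426-133690485, differed by 0.05 (SE 0.18, *P*-value = 0.796). Over all measured probes of the translation factors, 9 of 83 had a *P*-value under 0.05, against 14.1% of all measured probes, and none passed after adjustment.

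Because probes of 1 gene differed, the 5′-most and 3′-most measured probe were compared within each array for every gene with both on 1 strand, a comparison added after the values were seen. Of 20 translation factor genes, only *Eif3j* had a *P*-value under 0.05 (5.00%, against 8.44% of 1729 genes of the array, or 4.68% for lower values at the 5′ end), at a difference of -0.47 between the changes of its ends (SE 0.16, *P*-value = 0.00706, adjusted over the 1729 genes 0.325). The sign was negative for 12 of the 20 and for 52.8% of the 1729 genes, so lower values at the 5′ end were not general. The difference for *Eif3c* was -0.35 (SE 0.20, *P*-value = 0.0876), and -0.31 (*P*-value = 0.0260) without the 3 arrays that stood apart, where that for *Eif3j* was -0.27 (*P*-value = 0.0503). For *Eef1a1* the probes, which overlap at their ends, changed by 0.36 (SE 0.15, *P*-value = 0.0223) at chr9:78326435-78326494 and 0.17 (SE 0.10, *P*-value = 0.0926) at chr9:78326385-78326444. These changes differed by 0.19 (SE 0.15, *P*-value = 0.226), so the overlapping probes could not be told apart by the test. Without the 3 arrays that stood apart they differed by 0.23 (*P*-value = 0.0420), and the ends of *Eif6* by -0.22 (*P*-value = 0.0276). The end difference of *Eif3j* did not pass 0.05 with each array centred on its median (-0.27, *P*-value = 0.352) or with the deposited values (-0.34, *P*-value = 0.207), where that of *Eif2b3* did (-0.19, *P*-value = 0.0456, and -0.31, *P*-value = 0.0220).

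**Figure D2:**
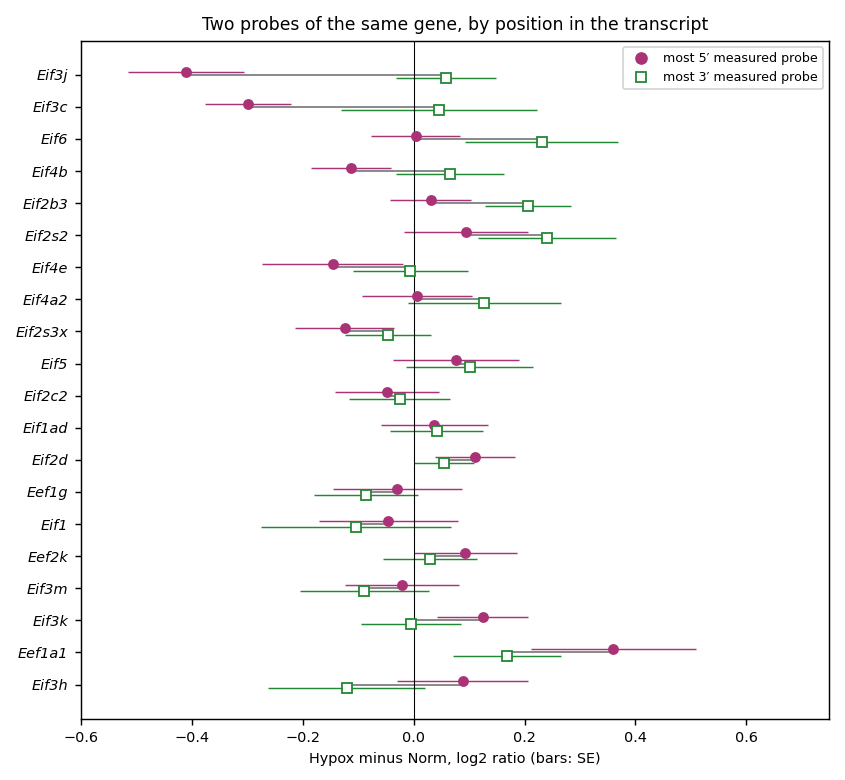
Difference of the log2 ratio, Hypox minus Norm, of the 5′-most (filled circles) and 3′-most (open squares) measured probe of 20 translation factor genes, with SE (bars), n = 12 arrays per group. The largest gap is that of *Eif3j*, -0.41 against 0.06.

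In eIF2B, the exchange factor with 5 subunits, 4 of 5 genes were higher in Hypox and 2 had a *P*-value under 0.05, with a median of 0.17 over the complex. Of all genes tested 58.8% were higher and 12.2% passed 0.05. The median was the value of *Eif2b5*, whose difference was 0.95 on the slide of Hypox 2 and between -0.23 and 0.24 on the others. *Eif2b3* encodes a subunit of its catalytic part. Its values were between -0.73 and -0.16 in Norm (median -0.38) and between -0.48 and 0.17 in Hypox (median -0.18). Of the Hypox arrays 6 lay above every Norm array and 11 above the Norm median. The difference was 0.21 (SE 0.08, *P*-value = 0.0130, adjusted *P*-value = 0.260), with the Hypox mean higher on 5 of 6 slides. *Eif2b3* was dim, 3.06 times the background, its values correlated with array brightness at -0.50 (Pearson's r, 24 arrays, a description), and with brightness as a covariate the difference was 0.23 (*P*-value = 0.00192). Its other probe differed by 0.03 (SE 0.07), and the mean of both by 0.12 (*P*-value = 0.0514).

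*Eif2b2* encodes a subunit of the regulatory part, which senses phosphorylated eIF2. It ranged from -0.25 to 0.44 in Norm (median 0.06) and from -0.39 to 1.56 in Hypox (median 0.33), and Hypox 2 held the value of 1.56. The difference was 0.31 (SE 0.14, *P*-value = 0.0360, adjusted *P*-value = 0.361), with the Hypox mean higher on 5 of 6 slides. Without Hypox 2 it was 0.20 (*P*-value = 0.0659), and it did not pass 0.05 either without Norm 1, 3, 8, 11 or 12 or Hypox 7, 8 or 10, left out one at a time (differences between 0.28 and 0.30). Without the 3 arrays that stood apart it was 0.30 (*P*-value = 0.00242). The other subunits differed by 0.17 (*Eif2b5*, which holds the catalytic domain), 0.08 (*Eif2b1*) and -0.02 (*Eif2b4*).

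The genes of eIF2 itself did not pass the test. *Eif2s1*, whose protein carries the regulated phosphorylation site, ranged from -0.98 to 0.02 in Norm (median -0.43) and from -0.65 to 0.05 in Hypox (median -0.19). The groups overlapped over most of their range. Its difference was 0.15 (SE 0.11, 95% interval -0.06 to 0.37, *P*-value = 0.162). *Eif2s2* differed by 0.09, *Eif2s3x* on the X chromosome by -0.12 and its Y-linked copy *Eif2s3y* by -0.21. Of the genes that can bring a tRNA to the ribosome apart from eIF2, *Eif2a* differed by 0.02 and *Eif2d* by 0.11 (SE 0.07, *P*-value = 0.134), the smallest *P*-value of this group. *Eif2d* was between -0.53 and -0.02 in Norm (median -0.39) and between -0.46 and 0.03 in Hypox (median -0.20), with 10 of 12 Hypox arrays above the Norm median.

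Of the 4 eIF2 kinases 1 was measured. *Eif2ak1*, the kinase known for its control by heme, lay at 2.32 times the background and ranged from -0.65 to 0.07 in Norm (median -0.27) and from -0.55 to 0.00164 in Hypox (median -0.23). Its difference was -0.02 (SE 0.08, *P*-value = 0.808), a value that turned positive with several other settings. *Eif2ak4*, the kinase of amino acid shortage, had its brightest probe at 1.97 times the background, just outside the rule, as was the second *Eif2s1* probe at 1.98. Just inside lay the second *Eif2s3x* probe at 2.18 and *Eif4e3* at 2.26. *Eif2ak2* and *Eif2ak3*, the kinases of double-stranded RNA and of the endoplasmic reticulum, lay at 1.46 and 1.56. The remaining genes without a measured probe were *Eif5b*, *Eif4e1b*, *Eif2c1* and *Eif2c3*, at between 1.13 and 1.45. No level can be given for these 7 genes beyond this.

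In eIF4F, its helpers and their relatives, 2 of 11 measured genes had a *P*-value under 0.05, both higher in Hypox. Of all genes tested 7.17% passed as higher, and the median of the 11 was 0.06. *Eif4e2* encodes a cap-binding protein related to eIF4E. It ranged from -0.53 to -0.02 in Norm (median -0.15) and from -0.25 to 0.69 in Hypox (median 0.04), with 7 Hypox arrays above every Norm array. The difference was 0.24 (SE 0.08, *P*-value = 0.00852, adjusted *P*-value = 0.230), higher on 5 of 6 slides, and 0.25 (*P*-value = 0.0113) without the 3 arrays that stood apart. *Eif4a1*, the main helicase, ranged from -0.09 to 0.38 in Norm (median 0.15) and from 0.04 to 0.91 in Hypox (median 0.33). Its Hypox mean was higher on 6 of 6 slides, and 5 Hypox arrays lay above every Norm array. The difference was 0.24 (SE 0.09, *P*-value = 0.0153, adjusted *P*-value = 0.272). With the Cy5 channel alone *Eif4a1* differed by 0.19 (*P*-value = 0.0947), and with the deposited values by 0.46 (*P*-value = 0.0642).

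*Eif4e*, the cap-binding protein of eIF4F, did not pass the test. It ranged from -0.36 to 0.72 in Norm (median 0.06) and from -0.41 to 0.55 in Hypox (median -0.11), and differed by -0.15 (SE 0.13, 95% interval -0.41 to 0.11, *P*-value = 0.259). Its values correlated with array brightness at 0.69 (Pearson's r, 24 arrays, a description), and with brightness as a covariate the difference was -0.19 (*P*-value = 0.0495). The scaffold genes differed by 0.20 for *Eif4g2*, which lacks the part that binds eIF4E (*P*-value = 0.0556), by -0.13 for *Eif4g1* and by -0.11 for *Eif4g3*. With the slide as a block, *Eif4g2* was 1 of 7 genes with a *P*-value under 0.05. Of the others, *Eif4a2* and *Eif4a3* differed by 0.13 each, *Eif4e3* by 0.06, *Eif4h* by -0.08 and *Eif4b* by -0.12.

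**Figure D3:**
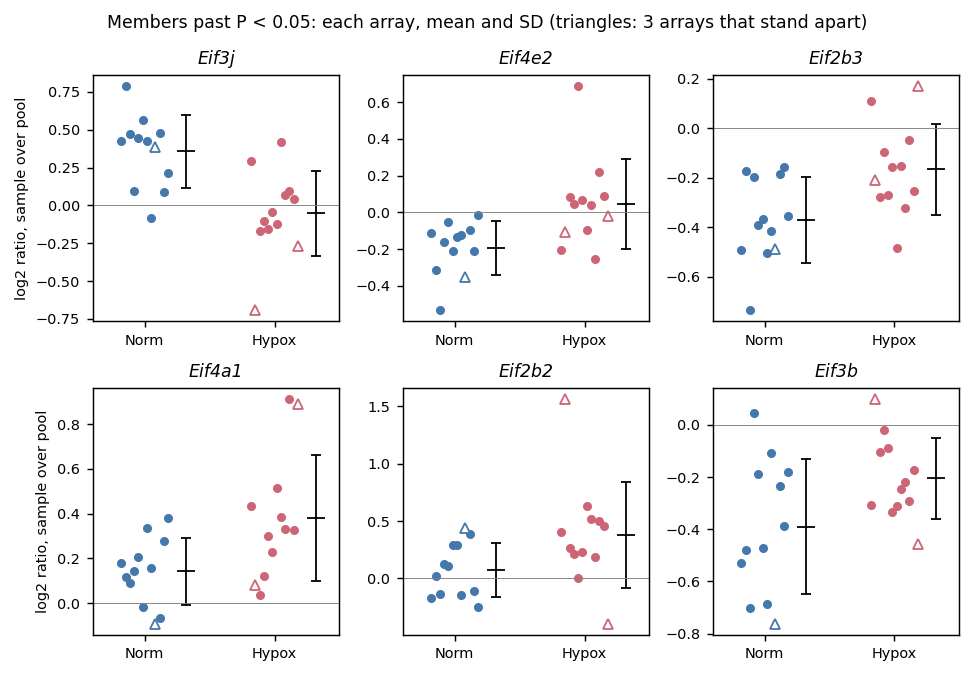
Log2 ratio of sample over pool in each of the 12 Norm and 12 Hypox arrays for the 6 genes with an unadjusted *P*-value under 0.05, with the mean and SD beside the points, each panel with its own axis. Triangles mark Hypox 2, Hypox 12 and Norm 9, the arrays that stood apart. All 12 Hypox values of *Eif3j* are below the Norm median of 0.42, while the groups overlap in every panel.

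The proteins that hold eIF4E back showed no change that passed the test. *Eif4ebp1* ranged from -0.64 to 0.36 in Norm (median -0.04) and from -0.40 to 1.40 in Hypox (median 0.17). Its Hypox mean was higher on 6 of 6 slides, by 0.97 on the slide of Hypox 2 and by between 0.03 and 0.19 on the others. The difference was 0.23 (SE 0.15, 95% interval -0.07 to 0.53, *P*-value = 0.120), and 0.13 without Hypox 2. *Eif4ebp2* differed by -0.10, *Eif4ebp3* by 0.07 and *Eif4enif1*, which carries eIF4E into the nucleus, by -0.06.

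The factors of start site choice and subunit joining had 6 of 7 genes higher in Hypox, none with a *P*-value under 0.05, at a median of 0.10. Over all genes tested, 58.8% were higher and 12.2% passed 0.05. *Eif1b*, a close relative of *Eif1*, ranged from -0.93 to -0.06 in Norm (median -0.36) and from -0.52 to 1.61 in Hypox (median -0.26). The difference of 0.28 (SE 0.16, *P*-value = 0.0946) was 0.12 without Hypox 12, which held the highest value, and 0.06 without the 3 arrays that stood apart. *Eif6*, which keeps large subunits from joining too early, differed by 0.23. Its difference was 0.98 on the slide of Hypox 2 and between -0.02 and 0.19 on the others. *Eif1a* differed by 0.12, *Eif5* by 0.10, *Eif1ax* by 0.05, *Eif1ad* by 0.04 and *Eif1* by -0.10. The values of *Eif1* correlated with array brightness at -0.78 (Pearson's r, 24 arrays, a description).

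The 2 genes of eIF5A, which helps the ribosome past difficult peptide bonds and carries the modified residue hypusine, differed in opposite directions. *Eif5a* differed by 0.19 (SE 0.11, *P*-value = 0.102). *Eif5a2* ranged from -0.05 to 1.20 in Norm (median 0.12) and from -0.32 to 0.30 in Hypox (median 0.06), and differed by -0.20 (SE 0.11, *P*-value = 0.0854). Of its Hypox arrays 10 were below the Norm median, and Norm 9 held the value of 1.20. Without Norm 9 the difference was -0.11 (*P*-value = 0.185). It was -0.30 (*P*-value = 0.0184) with the deposited values and -0.025 (*P*-value = 0.903) with each array centred on its median.

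All 8 elongation factor genes were measured, 6 of them higher in Hypox, and none had a *P*-value under 0.05. Over all genes tested, 58.8% were higher and 12.2% passed 0.05. *Eef1a1* ranged from -0.69 to 0.26 in Norm (median -0.31) and from -0.59 to 0.18 in Hypox (median -0.16). The difference was 0.17 (SE 0.10, 95% interval -0.03 to 0.37, *P*-value = 0.0916), and it passed 0.05 with the mean of its 2 probes (0.26, *P*-value = 0.0141), without Norm 12 (0.22, *P*-value = 0.0179) and without Hypox 4 (0.21, *P*-value = 0.0345). *Eef1a2*, the form of mature muscle, ranged from -1.59 to -0.30 in Norm (median -0.76) and from -1.21 to 0.19 in Hypox (median -0.67). Its spread was among the wider ones, and the difference was 0.21 (SE 0.17, 95% interval -0.13 to 0.55, *P*-value = 0.213). The exchange factor genes of eEF1 differed by 0.20 (*Eef1d*), 0.14 (*Eef1b2*) and -0.09 (*Eef1g*), and *Eef1e1*, a member of the tRNA synthetase complex, by 0.09. Other probes of *Eef1g* differed by 0.32 (SE 0.15, limma *P*-value = 0.0433) and -0.03 (SE 0.12), so its sign depended on the probe.

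*Eef2*, the translocase, ranged from -0.77 to 1.03 in Norm (median 0.06) and from -0.39 to 0.79 in Hypox (median 0.11). The Hypox range lay within that of Norm. The difference was -0.07 (SE 0.17, 95% interval -0.41 to 0.27, *P*-value = 0.686), its sign turned with 5 of the other settings, and its values correlated with array brightness at -0.75 (Pearson's r, 24 arrays, a description). *Eef2k*, the kinase that inhibits eEF2, differed by 0.03 (SE 0.08). Of the Argonaute genes, *Eif2c4* ranged from -0.11 to 0.90 in Norm (median 0.30) and from -0.16 to 1.17 in Hypox (median 0.43) and differed by 0.12 (SE 0.12, *P*-value = 0.328), or by 0.05 without Hypox 2. *Eif2c2* differed by -0.05.

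Related factors were compared within each array in 8 pairs, by the difference of their log2 ratios and a 2-sided permutation test (100000 resamples), adjusted over the 8 pairs. No pair passed after adjustment, and 1 did before it. The smallest *P*-value was that of *Eif4g1* minus *Eif4g2*, whose change differed by -0.33 (95% interval -0.66 to -0.00320, permutation *P*-value = 0.0470, adjusted 0.151). *Eif4e* minus *Eif4e2* followed with -0.38 (95% interval -0.77 to 0.01, permutation *P*-value = 0.0516, adjusted 0.151), *Eif5a* minus *Eif5a2* with 0.39 (95% interval -0.02 to 0.80, permutation *P*-value = 0.0567, adjusted 0.151) and *Eif1* minus *Eif1b* with -0.39 (95% interval -0.84 to 0.07, permutation *P*-value = 0.0914, adjusted 0.183). With the processed signals of the scanner software, the first 2 of these passed (-0.42, adjusted permutation *P*-value = 0.0317, and -0.55, adjusted permutation *P*-value = 0.0369).

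The changes of the muscle and general forms of eEF1A did not differ beyond the spread of the arrays. The change of *Eef1a1* minus that of *Eef1a2* was -0.04 (95% interval -0.44 to 0.35, permutation *P*-value = 0.817). Compared in the same way, the changes of the helicases *Eif4a1* minus *Eif4a2* gave 0.11 (95% interval -0.29 to 0.51). Those of *Eif4g1* minus *Eif4g3* gave -0.01 (95% interval -0.25 to 0.22) and those of *Eif4ebp1* minus *Eif4ebp2* 0.33 (95% interval -0.29 to 0.95). These intervals leave room for sizable differences in either direction.

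**Figure D4:**
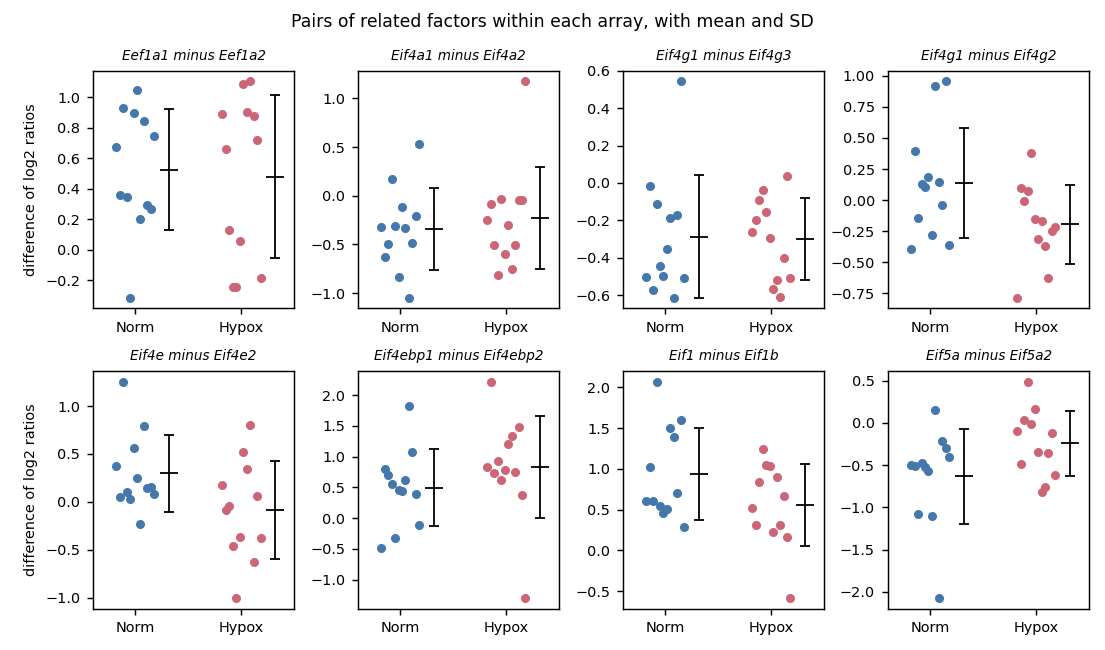
Difference of the log2 ratios of 2 related factors within each array, for 12 Norm and 12 Hypox arrays, with mean and SD beside the points, each panel with its own axis. The Norm and Hypox values overlap in all 8 pairs.

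Messages with a 5′ terminal oligopyrimidine tract (TOP) are known for having their translation controlled together by mTOR and LARP1. The 9 known TOP messages among the factors, *Eef1a1*, *Eef1b2*, *Eef1d*, *Eef1g*, *Eef2*, *Eif3e*, *Eif3f*, *Eif3h* and *Eif4b*, were all measured. With the probe that stood for each gene, 4 were higher and 5 lower in Hypox, between -0.12 and 0.20, with a median of -0.05. None had a *P*-value under 0.05 with that probe. Other probes differed by 0.36 for *Eef1a1* (limma *P*-value = 0.0223) and by 0.32 (limma *P*-value = 0.0433) and -0.03 for *Eef1g*. They differed by 0.09 for *Eif3h* and by 0.07 and -0.11 for *Eif4b*, so some signs depended on the probe. The 50 other measured genes, the 2 Argonaute genes among them, had a median of 0.08, with 34 higher.

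Of 38 other genes of translational control, from mTOR and its partners to release factors, 33 were measured, 20 of them higher and 13 lower at a median of 0.03. None passed after adjustment, and 4, or 2 in each direction, had a *P*-value under 0.05, a share near the 12.2% of all genes tested. Those higher were *Dohh*, which completes the hypusine of eIF5A (0.39, SE 0.15, *P*-value = 0.0156), and *Ppp1r15a*, which directs a phosphatase to eIF2 (0.17, SE 0.08, *P*-value = 0.0410). Those lower were *Pabpc4*, a cytoplasmic poly(A)-binding protein (-0.29, SE 0.11, *P*-value = 0.0127), and *Atf4*, the transcription factor whose message is translated when eIF2 is phosphorylated (-0.24, SE 0.10, *P*-value = 0.0221).

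The 6 genes under 0.05 held to different degrees when the arrays were processed in other ways. *Eif2b3* and *Eif4e2* passed 0.05 also with the processed signals, the deposited values and the Cy5 channel alone, by between 0.20 and 0.43 for *Eif2b3* and between 0.20 and 0.38 for *Eif4e2*. With the methods' t-test on the deposited values *Eif4e2* did not (*P*-value = 0.0544). *Eif2b2* and *Eif3b* passed with none of these, at *P*-values of 0.0519, 0.0998 and 0.0603 for *Eif2b2* and 0.0756, 0.0931 and 0.148 for *Eif3b*, while *Eif4a1* passed with the processed signals (*P*-value = 0.0369). *Eif3j* passed with the processed signals (-0.50) and the Cy5 channel alone (-0.47) but not with the deposited values, and its adjusted *P*-value was 0.0416 with the processed signals and 0.0245 with array weights. With each array centred on its median no translation factor passed, and 0.35% of all genes did.

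**Figure D5:**
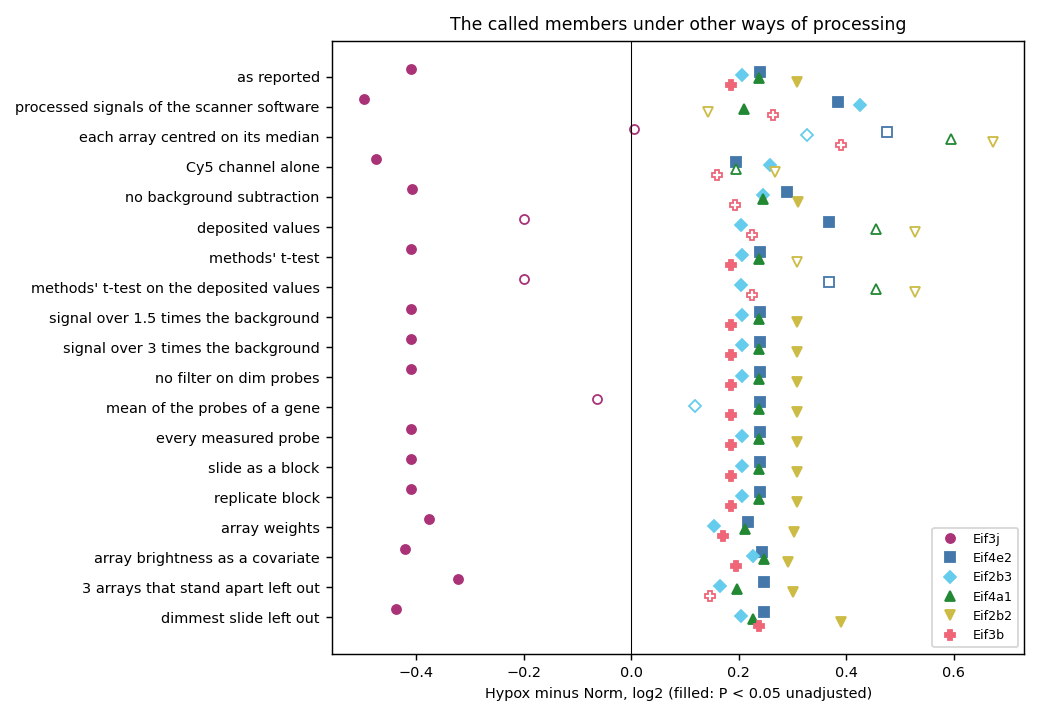
Difference of the log2 value, Hypox minus Norm, of the 6 genes with an unadjusted *P*-value under 0.05 (symbols) as reported and under each other way of processing (rows). Filled symbols have an unadjusted *P*-value under 0.05. *Eif3j* moves from -0.41 to 0.00552 with each array centred on its median, where the other 5 genes lie between 0.33 and 0.67.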

How the data were processed

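The authors deposited the intensity of every spot, mean signal and local median background for Cy5 and Cy3, as written by Agilent Feature Extraction 10.7.3.1 without normalization between arrays. Its log10 ratios (deposited as processed signals) and the authors' normalized log2 table served as alternatives. The scaling of that table is not given in the sources used here, and every column has a median of 6.58. Total RNA of 24 mice was measured, 12 per group, on 6 slides. Where the dye labels of Hypox samples disagreed with the descriptions, the descriptions were followed.

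Background was corrected with normexp (offset 50), log2 ratios were normalized by loess within arrays, and repeated spots of a probe were averaged without control spots and 7260 flagged readings. Probes needed a Cy5 signal over 2 times the background and at most 4 missing arrays. The brightest probe stood for its gene, named by RefSeq (GRCm38.p6) accession, symbol or synonym. limma 3.58.1 (R 4.3.3), without a block, compared the groups over 9140 genes with Benjamini-Hochberg adjustment. The number and brightness of arrays limit precision, with 9.42% to 37.8% of the spots well above background. Labels number the mice and each mouse had a single array, so *P*-values measure the spread between mice and between arrays together. On simulated data for this comparison, over 9140 genes, limma found 92.0% of the genes changed by 0.4 at 0.05 and 71.0% after adjustment. Of those changed by 0.8 it found 100% and 99.0%. The simulated errors were normal and independent between genes and arrays, without slide effects or arrays that stood apart. Shares for the real arrays may differ, and changes smaller than 0.4 were not simulated. Alternatives were other signals, scalings, filters, probes, blocks, weights and tests, brightness as a covariate, and leaving out arrays or the dimmest slide. Figures were drawn with matplotlib 3.10.9.

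The members and lists were chosen with earlier results of these data known. Every measured member is named, with full values for those past 0.05, the smallest *P*-value of each complex, and *Eef1a1*, *Eef1a2*, *Eef2*, *Eif4ebp1*, *Eif4e* and *Eif2s1*. Other genes were named after their values were seen where they passed 0.05.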

Additional observations from a re-analysis of the deposited data

How the results depend on the processing

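The arrays limit these results by their brightness, since 29 of the 59 genes were not well above background on all arrays. The spread between arrays, each of a single mouse, was as large as most differences. The 95% interval of the difference included 0 for all but the 6 genes, and protein and phosphorylation were not measured. The count of 6 genes with a *P*-value under 0.05 was 0 with each array centred on its median (0.35% of all genes passed there), 3 with the Cy5 channel alone (8.01%), 3 with the deposited values (5.36%), 2 with the methods' t-test on the deposited values (5.66%), 13 with array weights (18.9%) and 13 without the 3 arrays that stood apart (16.2%), so the share of all genes moved the same way. It was 5 to 8 with the other settings, with 9 probes when every measured probe was fitted, and 4 to 8 when arrays were left out one at a time. The adjusted count of 0 was 1 (*Eif3j*) with the processed signals and 1 (*Eif3j*) with array weights. The median of the translation factors, 0.08, was 0.35 with median centring, where that of all genes was 0.25. It was 0.20 with the deposited values by either test, where that of all genes was 0.08. Without Hypox 2 it fell to 0.053, and that of all genes from 0.029 to 0.022. The 0 pairs of related factors that passed were 2 with the processed signals. The 1 gene whose end probes differed, *Eif3j*, became 2 with the processed signals, 2 with the replicate block, 3 without the 3 arrays that stood apart (*Eef1a1*, *Eif3c* and *Eif6*) and 3 without the dimmest slide, was *Eif2b3* in place of *Eif3j* with median centring and with the deposited values, and was 1 to 2 when arrays were left out one at a time. Signs were followed across the settings only for the genes given with full values. Among these, the sign turned with median centring for *Eif3j* (0.00552), *Eif2ak1* (0.11), *Eef2* (0.52) and *Eif4e* (0.13). It turned with the Cy5 channel alone for *Eif2ak1* (0.00344), *Eif2c4* (-0.018) and *Eef2* (0.040). That of *Eef2* turned also with the processed signals (0.035) and with the deposited values by either test (0.35). This sets aside 8.79e-05 for *Eif2ak1* with brightness as a covariate. With single arrays left out, *Eif2ak1* lay between -0.057 and 0.00844 and *Eef2* between -0.15 and 0.016. The cause of these shifts was not tested.

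The labels do not say whether the replicate numbers that both groups carry pair the mice. Deviations of arrays with the same number correlated at between -0.20 and 0.52, over 0.1 in 3 of 12 pairs. Of the Norm arrays, 2 of 12 correlated best with their own number. Such correlations cannot show whether mice were matched by number. With the replicate block 8 genes had a *P*-value under 0.05, the first 6 with *Eif1b* and *Eif4g2*, and 0 passed after adjustment. With the slide as a block 7 did, the first 6 and *Eif4g2*, and 0 after adjustment.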
